A study of Mus musculus with 9 samples.

Results

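The enzymes that make serine and pass its carbon on to folate were followed through 9 genes in 3T3-L1 cells. Phgdh, Psat1 and Psph carry out serine synthesis, and Shmt1, Shmt2, Mthfd1, Mthfd2, Mthfd1l and Aldh1l2 handle the folate-bound one-carbon units. The 9 genes were taken by symbol from the probe annotation, out of 18193 genes with a probe set naming a single symbol. The probe set of each gene was chosen by its mean level: of those naming that symbol alone, the one with the highest mean of its 9 values was read. That mean, between 7.63 and 11.25 on the log2 scale, is the only measured value used to choose the probe set, and it supports no result. The 9 genes themselves were chosen with earlier results of these data known. Counts of called members below are therefore a description, also where they stand beside the share of all genes. All 9 stood above 5, the log2 level under which a probe set was treated as dim. The 9 genes had 22 single-symbol probe sets in all, 6 genes had more than 1, and the further ones served as a check.

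RNA from whole cultures was measured on 9 single-colour arrays in 3 groups of 3: undifferentiated preadipocytes, adipocytes with control siRNA and adipocytes with PPAR gamma siRNA. 3T3-L1, a line of mouse fibroblasts, becomes fat-laden when 1 µM dexamethasone, 0.5 mM of the phosphodiesterase inhibitor isobutylmethylxanthine and 10 µg/ml insulin are added after confluence. On day 14 of differentiation, both adipocyte groups were detached, electroporated with a non-targeting siRNA or with siRNA to PPAR gamma, and plated again. PPAR gamma is a nuclear receptor required for fat cells to form. The amount was 2 or 3 nmol, and the sources used here do not assign it to arrays. The labels' protocol gives this handling for adipocytes only, so differentiation and the handling cannot be told apart in any comparison with preadipocytes. The series design calls the 3 arrays of a group technical replicates, so the p-values cover only how far these samples differ, which may be technical. In RNA of a whole culture, fewer cells that express a gene and less of its RNA per cell cannot be told apart.

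Serine is built from the glycolytic intermediate 3-phosphoglycerate by an oxidation, a transamination and a dephosphorylation. Serine hydroxymethyltransferases then split serine into glycine and a one-carbon unit on tetrahydrofolate, in the cytosol and in mitochondria. The mitochondrial branch exports formate, which the cytosol uses for purines, thymidylate and methionine, and both branches can release or use NADPH, the cofactor that fat synthesis consumes. In many cell types the genes respond to amino acid shortage through the transcription factor ATF4.

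Replicate arrays of a group correlated at 0.994 to 0.998, and array medians lay between 4.82 and 4.89. Pparg, the siRNA target, read 8.22 ± 0.12 in preadipocytes, 12.79 ± 0.12 with control siRNA and 9.59 ± 0.05 with PPAR gamma siRNA (log2, SD, n = 3). The mean level of 9 adipocyte markers was 6.29 to 6.40, 13.14 to 13.18 and 10.35 to 10.49 on the arrays of these groups, and that of 9 preadipocyte and fibroblast markers 10.91 to 11.00, 7.97 to 8.17 and 9.32 to 9.80. The 9 proliferation markers all fell in differentiation, with mean levels of 8.88 to 9.27, 6.42 to 6.92 and 6.82 to 7.40. Actb read higher at its 3' than at its 5' probe set, a measure of RNA integrity, by 0.23 to 0.36 in preadipocytes, 0.91 to 1.30 in control siRNA and 0.54 to 1.25 in PPAR gamma siRNA adipocytes. The same difference for Gapdh was -0.19 to -0.02, -0.12 to 0.11 and -0.06 to 0.06, so there the groups overlapped. The spike-in BioB read 7.08 to 7.60, 8.44 to 8.73 and 7.95 to 8.49. The part of these shifts in the results below was not tested.

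The siRNA against PPAR gamma lowered 4 of the 9 enzymes relative to the control siRNA, namely Phgdh, Psat1, Mthfd1 and Mthfd2, and raised 1, Aldh1l2. The other 4, Psph, Shmt1, Shmt2 and Mthfd1l, did not pass the threshold of an adjusted p of 0.05 in limma. Of all 18193 genes, 35.9% passed this threshold between the siRNAs, 16.1% lower and 19.9% higher. In differentiation, control siRNA adipocytes against preadipocytes, 3 enzymes were higher (Psat1, Shmt1 and Mthfd1), 1 was lower (Shmt2) and 5 did not pass, against 51.8% of all genes called, 27.1% higher and 24.7% lower. Between PPAR gamma siRNA adipocytes and preadipocytes, 3 were higher (Psph, Shmt1 and Aldh1l2), 3 were lower (Phgdh, Shmt2 and Mthfd2) and 3 did not pass, against 36.5% of all genes called, 19.6% higher and 16.9% lower. The 3 comparisons share their arrays in pairs, so they are not independent of each other. Arrays did not overlap for 5 of the 9 enzymes between the siRNAs, for 5 in differentiation and for 6 between PPAR gamma siRNA adipocytes and preadipocytes, against 44.4%, 61.5% and 49.8% of all genes. The Shmt1 calls depend on which of its probe sets is read, as given with that gene. The median change of the 3 serine synthesis genes was 0.21 in differentiation and -0.83 between the siRNAs, beside 0.09 and -0.0088 over all genes.

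**Figure D1:**
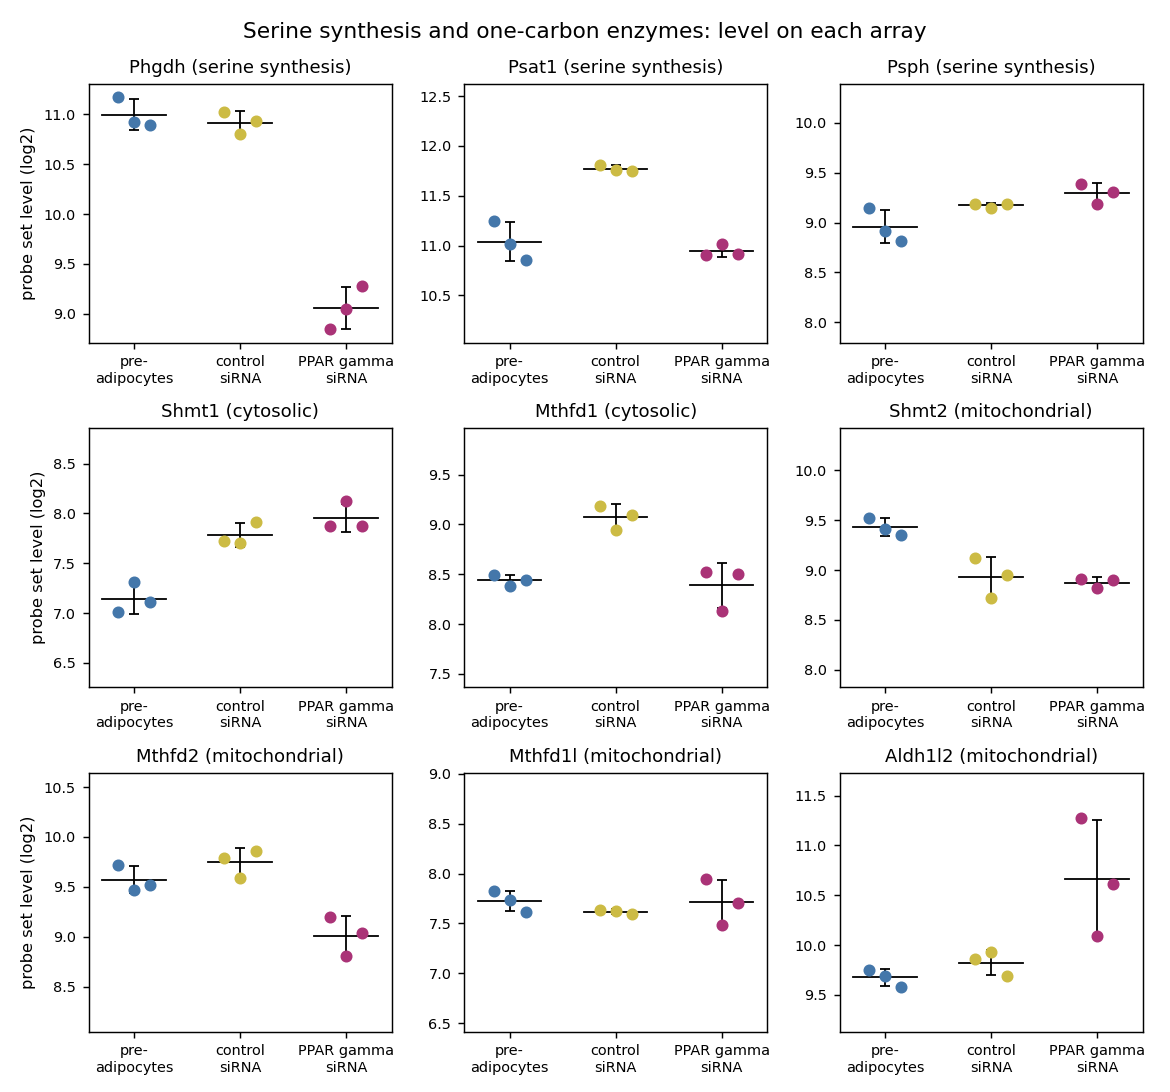
Level of each of the 9 enzymes (log2, one panel per gene, each panel spanning the same number of log2 units) on the 9 arrays by group. Points are arrays, long bars group means and error bars the SD (n = 3). Phgdh sat at 10.80 to 11.17 in preadipocytes and control siRNA adipocytes and at 8.85 to 9.27 with PPAR gamma siRNA, while Mthfd1l stayed within 7.49 to 7.94 in all groups.

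Phgdh encodes phosphoglycerate dehydrogenase, the first enzyme of serine synthesis and its committed step. Its log2 level was 11.17, 10.92 and 10.90 in preadipocytes, 11.02, 10.80 and 10.94 in control siRNA adipocytes, and 8.85, 9.05 and 9.27 in PPAR gamma siRNA adipocytes. The first 2 groups overlapped, and every PPAR gamma siRNA array lay below every other array. Phgdh fell by 1.86 ± 0.12 (log2, SE, adjusted p = 3.85e-07) between the siRNAs, a 3.63-fold lower level, with a 95% interval of -2.13 to -1.59. This was the largest change of any of the 9 enzymes in that comparison. Against preadipocytes, the level with PPAR gamma siRNA was 3.83-fold lower (log2 change -1.94 ± 0.12, adjusted p = 3.22e-07). Phgdh thus ended below its level before differentiation, although differentiation itself gave a change of -0.08 ± 0.12 (adjusted p = 0.637), with an interval of -0.35 to 0.19.

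All 4 single-symbol Phgdh probe sets are of the x type, in which some probes may also match other transcripts. Their changes between the siRNAs ranged from -2.02 to -1.42, and all 4 passed. In differentiation the 4 ranged from -0.39 to 0.08, and only that of second highest mean passed (-0.39, adjusted p = 0.0175). Of the further probe sets annotated to Phgdh together with a predicted gene, the one shared with Gm8096 changed by -2.07 between the siRNAs and was also lower in differentiation (-0.47, adjusted p = 0.00909). The one shared with Gm6756 changed by -1.94 and 0.02. Signal from Phgdh and from these predicted genes cannot be separated in those 2.

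Psat1 encodes phosphoserine aminotransferase, which takes the amino group for serine from glutamate. It read 11.25, 11.02 and 10.85 in preadipocytes, 11.81, 11.76 and 11.74 in control siRNA adipocytes, and 10.90, 11.01 and 10.91 in PPAR gamma siRNA adipocytes. The control siRNA arrays stood above all others, and the other groups overlapped. Psat1 rose 1.66-fold in differentiation (0.73 ± 0.10, adjusted p = 9.32e-05) and was 1.77-fold lower with PPAR gamma siRNA than with the control (-0.83 ± 0.10, adjusted p = 6.5e-05). Between PPAR gamma siRNA adipocytes and preadipocytes the change was -0.10 ± 0.10 (adjusted p = 0.536), with an interval of -0.32 to 0.13. Its second probe set gave changes of 0.79, -0.82 and -0.03 in the same order and passed in the same comparisons.

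Psph encodes phosphoserine phosphatase, which releases free serine in the last step. Its values were 9.15, 8.92 and 8.82 in preadipocytes, 9.19, 9.15 and 9.19 in control siRNA adipocytes, and 9.39, 9.19 and 9.31 in PPAR gamma siRNA adipocytes. The highest preadipocyte array and the lowest control siRNA array were equal to 2 decimals, and the adipocyte groups met at 9.19. The change between the siRNAs was 0.12 ± 0.10 (adjusted p = 0.455), with an interval of -0.10 to 0.34. The falls measured for Phgdh and Psat1 lie outside it. The interval covers only the spread of these technical replicates on a single probe set, so it does not exclude a fall in other cultures. In differentiation the change was 0.21 ± 0.10 (adjusted p = 0.104), and it passed without preadipocyte array 1 (0.31, adjusted p = 0.0293). Psph was higher with PPAR gamma siRNA than in preadipocytes by 0.33 ± 0.10 (adjusted p = 0.0245). That call was lost without PPAR gamma siRNA array 1 (0.29, adjusted p = 0.086) or 3 (0.33, adjusted p = 0.0577), without preadipocyte array 2 (0.31, adjusted p = 0.0867) or 3 (0.26, adjusted p = 0.101), and without the 2 adipocyte arrays of highest Actb difference (0.33, adjusted p = 0.0632).

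The promoters of the 4 enzymes that fell with PPAR gamma siRNA are shown because a fall between the siRNAs is what these genes share, with Mthfd1l, which did not pass in any comparison, beside them. Each line holds the 100 bases before the RefSeq gene start, 5′ to 3′ on the gene's strand, from assembly GRCm38.p6. Capitals mark CCAAT boxes, written ATTGG where the box lies on the other strand, and in Phgdh also the antioxidant response element core TGACNNNGC, on the other strand. The windows are chr3:98339970-98340069 (minus strand) for Phgdh, chr19:15925060-15925159 (minus) for Psat1, chr12:76255132-76255231 (plus) for Mthfd1, chr6:83317605-83317704 (minus) for Mthfd2 and chr10:3972975-3973074 (plus) for Mthfd1l.
Phgdh: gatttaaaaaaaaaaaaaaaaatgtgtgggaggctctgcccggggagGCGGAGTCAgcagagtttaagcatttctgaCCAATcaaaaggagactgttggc
Psat1: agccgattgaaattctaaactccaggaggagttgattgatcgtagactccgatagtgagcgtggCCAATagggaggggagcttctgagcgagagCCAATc
Mthfd1: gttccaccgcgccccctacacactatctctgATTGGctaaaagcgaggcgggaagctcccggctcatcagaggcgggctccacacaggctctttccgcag
Mthfd2: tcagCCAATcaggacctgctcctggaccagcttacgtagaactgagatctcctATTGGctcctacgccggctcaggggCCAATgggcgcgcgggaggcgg
Mthfd1l: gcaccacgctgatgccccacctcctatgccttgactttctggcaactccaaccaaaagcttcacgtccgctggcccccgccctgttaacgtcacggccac

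RefSeq promoters of 300 bases, 250 before and 50 after the start, were matched for 8 of the 9 enzymes, in 9 windows because Psat1 has 2 starts, and both strands were searched. A CCAAT box (CCAAT) stood in the promoter of 6 of the 8, namely Phgdh, Psat1, Psph, Shmt1, Mthfd1 and Mthfd2, and in 37.4% of all 32851 promoters. Its leftmost base lay at -193 and -23 from the start in Phgdh, at -36, -6 and 24 in Psat1, at -69 in Mthfd1 and at -96, -47 and -22 in Mthfd2. The box was thus found upstream of the 4 that fell, but also upstream of Psph and Shmt1, which did not pass between the siRNAs. The second Psat1 window held no match. The antioxidant response element core TGACNNNGC was found in Phgdh, at -53, and in Psph, at 5, and in 12.4% of all promoters. The C/EBP-ATF composite core TGATGNAA (3.97% of all promoters), the E-box CACGTG (7.15%) and the PPAR response element (0.0396%) were not found in any of the 9 windows. These matches describe letters in a window and are not measured binding sites.

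Shmt1 encodes the cytosolic serine hydroxymethyltransferase, and its 4 probe sets disagreed in direction. The probe set of highest mean read 7.01, 7.31 and 7.11 in preadipocytes, 7.73, 7.71 and 7.92 in control siRNA adipocytes, and 7.88, 8.12 and 7.87 in PPAR gamma siRNA adipocytes. Preadipocytes lay below both adipocyte groups, which overlapped. On this probe set Shmt1 was higher in differentiation (0.64 ± 0.11, adjusted p = 0.000476) and higher with PPAR gamma siRNA than in preadipocytes (0.81 ± 0.11, adjusted p = 0.00014), with 0.17 ± 0.11 between the siRNAs (adjusted p = 0.311). The next probe set by mean read 7.51 ± 0.08, 6.95 ± 0.04 and 6.51 ± 0.10 (SD, n = 3) in the same order of groups, with no overlap between any of them. On it the gene was lower in differentiation (-0.56, adjusted p = 0.000205), lower between the siRNAs (-0.44, adjusted p = 0.00213) and lower against preadipocytes (-0.99, adjusted p = 4.13e-06). The remaining probe sets were also lower in differentiation, by -0.46 and -0.65, and against preadipocytes, by -1.05 and -0.74. Between the siRNAs they changed by -0.59 (adjusted p = 0.00112) and -0.10 (adjusted p = 0.491), so 2 of the 4 Shmt1 probe sets were called lower there. The mean of all 4 gave -0.26, -0.24 and -0.49, each called lower. The direction of Shmt1 is therefore not settled by these arrays, and each statement on it holds for the named probe set.

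Mthfd1 encodes the cytosolic enzyme with 3 activities that interconverts formate and the one-carbon forms of folate. It read 8.49, 8.38 and 8.44 in preadipocytes, 9.19, 8.94 and 9.10 in control siRNA adipocytes, and 8.53, 8.13 and 8.50 in PPAR gamma siRNA adipocytes. The control siRNA arrays again stood above all others, and the other groups overlapped. Mthfd1 was lower with PPAR gamma siRNA than with the control by -0.69 ± 0.12 (adjusted p = 0.000684), and its 3 probe sets ranged only from -0.69 to -0.68. The rise in differentiation (0.63 ± 0.12, adjusted p = 0.000739) held for this probe set alone: the second gave 0.21 (adjusted p = 0.116) and the third 0.03 (adjusted p = 0.914). Against preadipocytes the change with PPAR gamma siRNA was -0.05 ± 0.12 (adjusted p = 0.779), whereas the second probe set was lower by -0.48 (adjusted p = 0.0033) and the third by -0.66 (adjusted p = 0.0196).

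Among the mitochondrial enzymes, Shmt2, the mitochondrial serine hydroxymethyltransferase, was lower in both adipocyte groups than in preadipocytes. It read 9.53, 9.41 and 9.35 in preadipocytes, 9.12, 8.72 and 8.95 in control siRNA adipocytes, and 8.91, 8.82 and 8.90 in PPAR gamma siRNA adipocytes. Every preadipocyte array lay above every adipocyte array, and the adipocyte groups overlapped. Shmt2 fell by 0.50 ± 0.11 (adjusted p = 0.00215) in differentiation and stood lower by 0.56 ± 0.11 (adjusted p = 0.00172) with PPAR gamma siRNA than in preadipocytes. Between the siRNAs the change was -0.05 ± 0.11 (adjusted p = 0.781), with an interval of -0.29 to 0.18. Of its 4 probe sets, 3 passed as lower in each comparison with preadipocytes and none passed between the siRNAs, where they ranged from -0.07 to 0.0068. Shmt2 moved with the proliferation markers in differentiation, and the part of proliferation in its fall was not tested.

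Mthfd2 encodes the mitochondrial methylenetetrahydrofolate dehydrogenase and cyclohydrolase, known for high levels in dividing and embryonic cells. It read 9.72, 9.47 and 9.52 in preadipocytes, 9.79, 9.59 and 9.86 in control siRNA adipocytes, and 9.19, 8.80 and 9.03 in PPAR gamma siRNA adipocytes. As for Phgdh, the first 2 groups overlapped and the PPAR gamma siRNA arrays lay below both. Mthfd2 was 1.66-fold lower with PPAR gamma siRNA than with the control (-0.74 ± 0.12, adjusted p = 0.000547) and lower than in preadipocytes by -0.56 ± 0.12 (adjusted p = 0.00371). Its second probe set gave larger falls, -0.96 (adjusted p = 0.000471) and -0.88 (adjusted p = 0.000973). In differentiation the change was 0.17 ± 0.12 (adjusted p = 0.267), with an interval of -0.09 to 0.44. Of the 9 proliferation markers, 3 were higher and none lower between the siRNAs.

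Mthfd1l encodes the mitochondrial formate synthetase that closes the mitochondrial branch. Its 9 values lay between 7.49 and 7.94, and all 3 groups overlapped. The changes were -0.10 ± 0.11 in differentiation (adjusted p = 0.486, interval -0.35 to 0.14), 0.09 ± 0.11 between the siRNAs (adjusted p = 0.638, interval -0.16 to 0.34) and -0.01 ± 0.11 against preadipocytes (adjusted p = 0.95, interval -0.26 to 0.24). The fall measured for Mthfd2 between the siRNAs lies outside the interval for Mthfd1l. That interval covers only the spread of these technical replicates on a single probe set, so it does not exclude a fall in other cultures.

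Aldh1l2 encodes the mitochondrial 10-formyltetrahydrofolate dehydrogenase, which oxidises a one-carbon unit to carbon dioxide and yields NADPH. It was the enzyme that stood higher with PPAR gamma siRNA. Its values were 9.75, 9.69 and 9.58 in preadipocytes, 9.86, 9.93 and 9.69 in control siRNA adipocytes, and 11.28, 10.09 and 10.61 in PPAR gamma siRNA adipocytes. The PPAR gamma siRNA arrays lay above all others but spread widely, with an SD of 0.59 against 0.13 and 0.08, and the other groups overlapped. Aldh1l2 was 1.79-fold higher with PPAR gamma siRNA than with the control (0.84 ± 0.22, adjusted p = 0.0143) and 1.98-fold higher than in preadipocytes (0.98 ± 0.22, adjusted p = 0.00535). The call between the siRNAs was lost without control siRNA array 3 (0.77, adjusted p = 0.0528) and without the 2 adipocyte arrays of highest Actb difference (0.88, adjusted p = 0.058). Without PPAR gamma siRNA array 1 the change was 0.53 (adjusted p = 0.0217). In differentiation it was 0.15 ± 0.22 (adjusted p = 0.622), with an interval of -0.34 to 0.64. A single probe set was available.

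**Figure D2:**
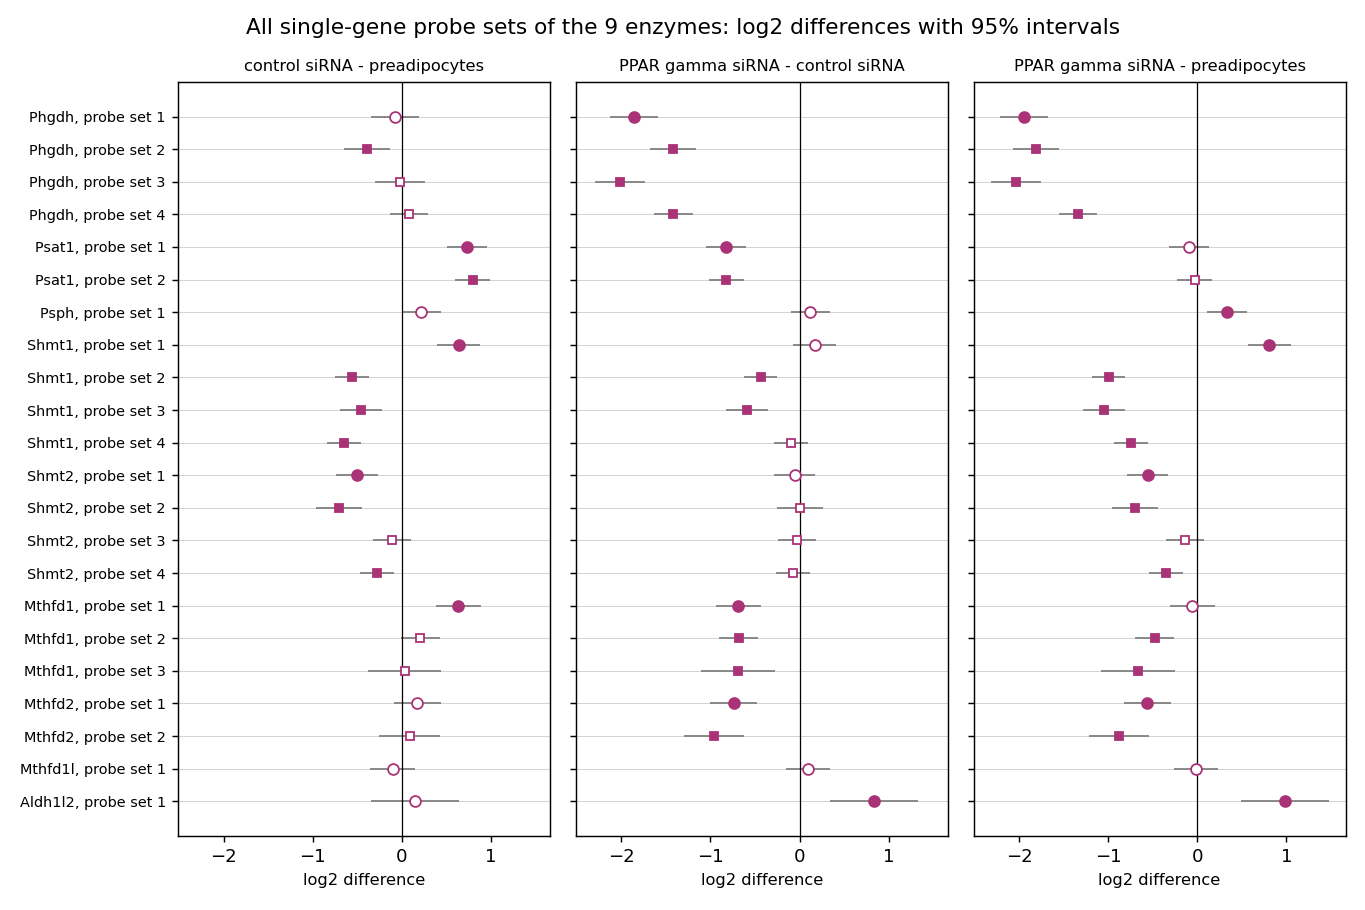
Change (log2, horizontal axis) of the 22 single-symbol probe sets of the 9 enzymes in the 3 comparisons, with 95% intervals as lines. Circles are the probe sets of highest mean, squares the others in order of mean, and filled symbols passed an adjusted p of 0.05. The 4 Phgdh probe sets all lay between -2.02 and -1.42 between the siRNAs, and the first Shmt1 probe set lay on the other side of 0 from the other 3 in both comparisons with preadipocytes.

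Whether partner enzymes changed unequally was asked from the difference of a pair on the same array, for 6 pairs. Levels of different probe sets are not comparable, so only the shift of a difference between groups is read. With 3 arrays against 3, the two-sided exact permutation test cannot go below p = 0.1. Every shift given here without a p for the probe sets of highest mean reached that value. Its adjusted p over the 6 pairs was 0.1 in differentiation, 0.15 between the siRNAs and 0.12 against preadipocytes. Shifts with a second probe set are given as sizes only, and some of them did not reach 0.1. Phgdh minus Psat1 was -0.07, -0.09 and 0.04 in preadipocytes, -0.78, -0.96 and -0.81 in control siRNA adipocytes, and -2.05, -1.96 and -1.64 in PPAR gamma siRNA adipocytes. The 3 groups did not overlap, and the mean shifted by -0.81 in differentiation and by a further -1.03 with PPAR gamma siRNA. With the second probe set of each gene the shifts were -1.18 and -0.59, so both kept their direction and the order of their sizes turned. Phgdh, the gene of the first step, thus went down relative to Psat1, the gene of the middle step, in both comparisons and on either choice of probe set.

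Mthfd1l minus Mthfd1 was -0.72 ± 0.10 in preadipocytes, -1.46 ± 0.13 with control siRNA and -0.68 ± 0.11 with PPAR gamma siRNA (SD, n = 3). The difference went down by -0.74 and back up by 0.78, and the outer groups differed by 0.04 (exact p = 0.5). With the second Mthfd1 probe set the shifts were -0.31 and 0.77 and the outer groups differed by 0.46, so the return to the preadipocyte value held for the first probe set alone. Mthfd2 minus Mthfd1 went from 1.13 ± 0.08 to 0.67 ± 0.09 and 0.62 ± 0.08, a shift of -0.46 in differentiation and of -0.05 between the siRNAs (exact p = 0.6), where both genes fell. With the second probe set of each gene these shifts were -0.12 and -0.28, so which step moved this pair more depends on the probe set. Mthfd2 minus Mthfd1l went from 1.85 ± 0.09 to 2.13 ± 0.16 and then to 1.30 ± 0.04, shifts of 0.28 and -0.83. With the second Mthfd2 probe set they were 0.19 and -1.05. Shmt2 minus Shmt1 went from 2.29 ± 0.21 to 1.15 ± 0.21 and 0.92 ± 0.19, a shift of -1.14 in differentiation and -0.23 between the siRNAs (exact p = 0.4). With the second probe set of each gene, the shift in differentiation was -0.15, that between the siRNAs 0.44 and that against preadipocytes 0.29 in place of -1.37.

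Aldh1l2 was also set against Aldh1l1, its cytosolic counterpart, which is no member of the set. Aldh1l1 read 4.21 ± 0.14, 8.16 ± 0.15 and 7.28 ± 0.28 in the 3 groups (SD, n = 3), a rise of 3.95 ± 0.14 in differentiation (adjusted p = 7.66e-10) and a fall of 0.88 ± 0.14 between the siRNAs (adjusted p = 0.000482). Aldh1l2 minus Aldh1l1 was 5.47 ± 0.20, 1.66 ± 0.12 and 3.38 ± 0.84, and the groups did not overlap. The difference shifted by -3.80 in differentiation and by 1.71 with PPAR gamma siRNA. The second Aldh1l1 probe set stayed at a dim level, at 3.47, 3.74 and 3.65, and with it the shifts were -0.12 in differentiation, 0.92 between the siRNAs and 0.81 in place of -2.09 against preadipocytes.

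**Figure D3:**
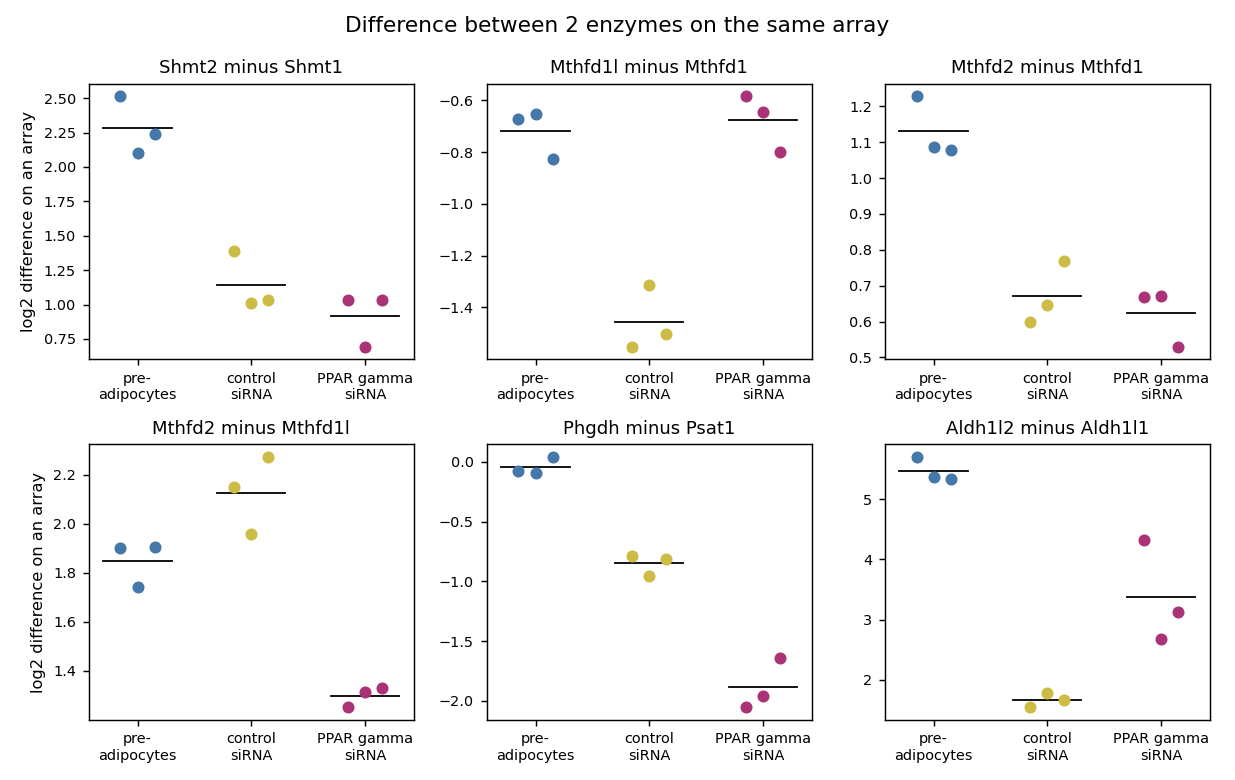
Difference between the log2 values of 2 enzymes on the same array (vertical axis) for 6 pairs, by group. Points are arrays and lines group means (n = 3), and each panel has its own scale. Phgdh minus Psat1 stepped down from -0.04 to -0.85 and -1.89, and Mthfd1l minus Mthfd1 read -1.46 in control siRNA adipocytes against -0.72 and -0.68.

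The pattern over the 9 arrays was compared among the enzymes by the root mean square difference of their centred log2 values, as a description of arrays that share their groups. The pairs most alike were Psph with Mthfd1l (0.173) and Psat1 with Mthfd1 (0.174), followed by Mthfd1 with Mthfd2 (0.239). Phgdh and Aldh1l2 were the most unlike pair, at 1.38. Among the other 18192 genes, those closest to Phgdh were Phlda3 (0.222), Sgms2 (0.240) and Denr (0.248). The values were not scaled to the size of a gene's change, which between the siRNAs was larger for Phgdh than for Psat1. The larger distances for Phgdh therefore do not show an unusual pattern. Closest to Psat1 were Ubl3 (0.0794), Timm50 (0.0834) and Psmd1 (0.0852), and closest to Mthfd1 were Nt5dc1 (0.069), Zdhhc12 (0.0711) and Hspa4 (0.0753). Mthfd2 was closest to Tex30 (0.0714), Ptpn2 (0.0871) and Dkc1 (0.114). Shmt2 was closest to Rrp15 (0.0723), Serinc4 (0.0823) and Brms1l (0.0855), and Shmt1, on its first probe set, to Ptafr (0.0892), Hgsnat (0.101) and Rogdi (0.109). Aldh1l2 was closest to Ern1 (0.174), Slc48a1 (0.208) and Mt2 (0.214). The near neighbours of Psph (Aadat, Rgs1 and Dctn3) and of Mthfd1l (Oser1, Plch1 and 5730403I07Rik), at 0.0498 to 0.0639, are those of genes that moved little. Of the neighbours named, Ptafr, Aadat, Rgs1, Plch1 and 5730403I07Rik had group means under the dim level of 5 throughout. Serinc4 was under it in both adipocyte groups.

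Of 18 measured folate enzymes and carriers outside the set, 8 were higher and 4 lower in differentiation (median change 0.25), and 1 was higher and 5 lower between the siRNAs (median -0.17). Against preadipocytes, 5 were higher and 3 lower with PPAR gamma siRNA (median 0.14, beside 0.07 over all genes). Sfxn1, the mitochondrial serine carrier, went from 9.38 to 11.58 and 9.90, a rise of 2.20 ± 0.09 and a fall of 1.67 ± 0.09, and Slc19a1, the reduced folate carrier, rose by 1.60 ± 0.11 and fell by 1.06 ± 0.11. Sfxn3 of the same carrier family went the other way, by -2.15 ± 0.16 and 1.71 ± 0.16. Of 3 measured genes of the glycine cleavage system, which feeds one-carbon units from glycine, Gcsh (2.00 ± 0.09 and -1.71 ± 0.09) and Dld (2.25 ± 0.09 and -2.04 ± 0.09) rose in differentiation and fell with PPAR gamma siRNA. Dld also serves the pyruvate and oxoglutarate dehydrogenase complexes. The third gene, Gldc, read 4.49, 4.39 and 4.21 in the 3 groups, under the dim level of 5. It did not pass in differentiation (-0.11 ± 0.08) or between the siRNAs (-0.17 ± 0.08), and was lower against preadipocytes (-0.28 ± 0.08). Of the 3 measured glycolytic genes around 3-phosphoglycerate, the substrate of Phgdh, 3 were higher in differentiation and 2 lower between the siRNAs, with Pgk1 at 1.28 and -0.31 and Pgam1 at 1.33 and -0.61 (median of the 3 genes 1.28 and -0.31). Against preadipocytes the 3 were higher, with a median of 0.72, while Phgdh was lower.

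Of 21 measured amino acid response genes, known as ATF4 targets, 10 were higher and 8 lower in differentiation (median 0.0048), and 5 were higher and 4 lower between the siRNAs (median -0.01), while Phgdh, Psat1 and Mthfd2, which are often counted with them, fell. Against preadipocytes 7 were higher and 7 lower (median 0.07). Asns, asparagine synthetase, fell with PPAR gamma siRNA by 0.77 ± 0.09 (adjusted p = 3.1e-05), as did Cebpg (-1.01 ± 0.13) and Gars (-0.67 ± 0.09), whereas Slc7a5 (1.89 ± 0.20), Atf5 (0.70 ± 0.22) and Ddit3 (0.66 ± 0.17) rose. Atf4 itself changed by 0.0027 ± 0.10 in differentiation (adjusted p = 0.986) and by 0.10 ± 0.10 between the siRNAs (adjusted p = 0.547). Its x-type probe set changed by -0.54 (adjusted p = 0.0226) and -0.19 (adjusted p = 0.492). A dim further probe set (mean 4.30) changed by 0.38 (adjusted p = 0.0101) and -0.12 (adjusted p = 0.47). The Atf4 probe sets thus disagreed in differentiation, and none passed between the siRNAs. Against preadipocytes only the x-type passed (-0.73, adjusted p = 0.0063). These are RNA levels, and the amount or activity of the ATF4 protein was not measured. Of the 9 measured regulators known to act on the pathway, 3 were higher and 2 lower in differentiation (median 0.0027) and 1 was higher and 3 lower between the siRNAs (median -0.15). Against preadipocytes 2 were higher and 2 lower (median -0.10). Myc, read from a single probe set, went from 7.33 ± 0.27 to 8.25 ± 0.16 and 7.03 ± 0.27 (SD, n = 3), a rise of 0.92 ± 0.16 (adjusted p = 0.000511) and a fall of 1.22 ± 0.16 (adjusted p = 9.86e-05). Ppargc1a, another of these regulators, also rose, by 2.73 ± 0.23, and fell, by 1.30 ± 0.23, on its probe set of highest mean. The other called regulators differed. Mtor rose by 1.12 ± 0.12 and did not pass between the siRNAs (-0.14 ± 0.12). Kdm4c did not pass in differentiation (-0.21 ± 0.13) and fell by 0.51 ± 0.13 with PPAR gamma siRNA. Eif2ak3 fell by 0.66 ± 0.10 and did not pass between the siRNAs (-0.15 ± 0.10), and Eif2ak4 went by -0.75 ± 0.13 and 0.52 ± 0.13. Psat1 and, on its first probe set, Mthfd1 rose and fell in the same comparisons as Myc and Ppargc1a. Phgdh and Mthfd2 only fell with the siRNA, as Kdm4c did. Whether these changes are connected was not tested.

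**Figure D4:**
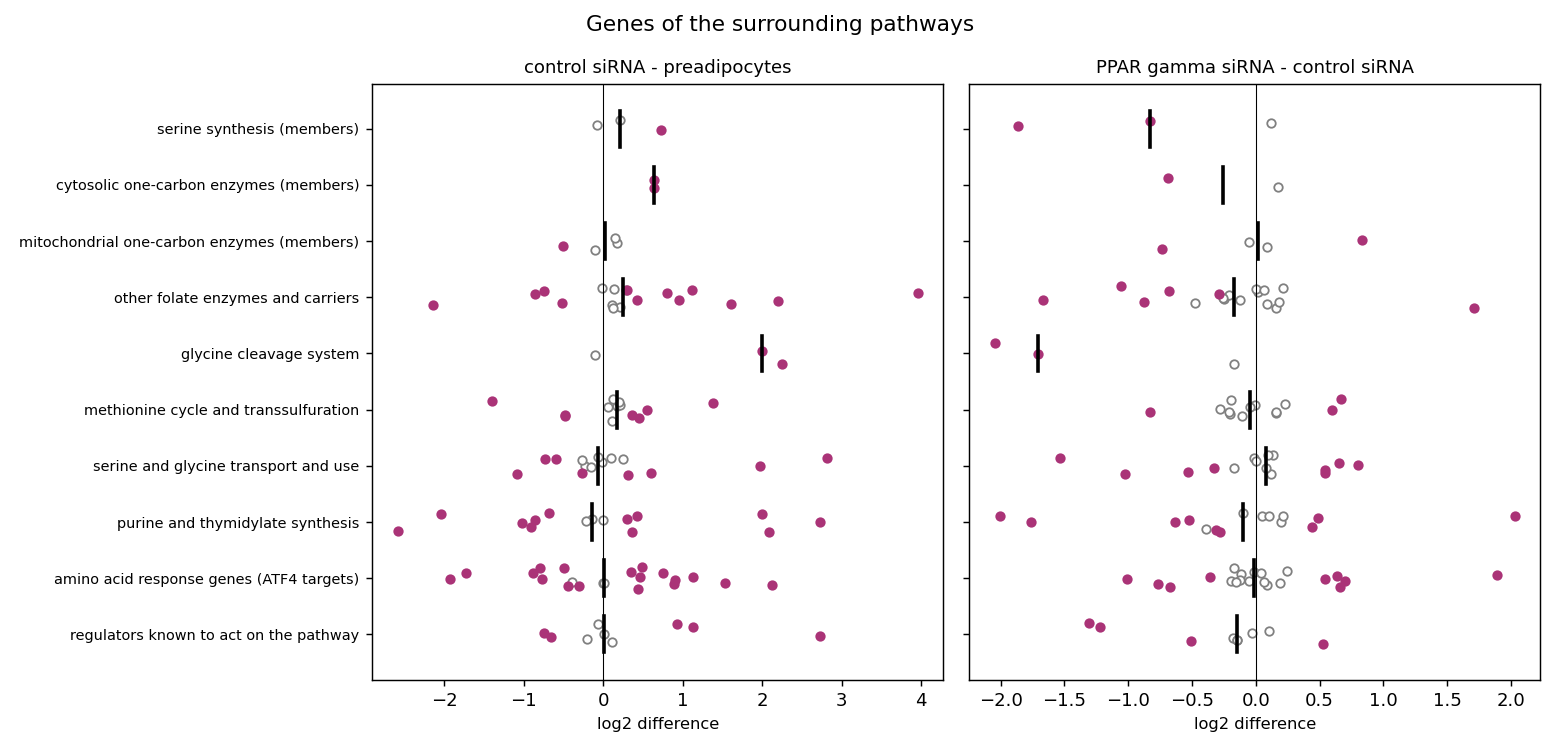
Change (log2, horizontal axis, with a different scale in each panel) of each measured gene in 10 lists of the surrounding pathways, in differentiation and between the siRNAs. Each point is a gene, filled where the adjusted p was under 0.05, and black bars are list medians. The median of the 3 glycine cleavage genes, of which 1 did not pass in either panel, was 2.00 and -1.71. That of the 21 amino acid response genes was 0.0048 and -0.01.

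Markers of other cell types had low mean levels, but single markers were not low. The mean level of 8 macrophage markers was 4.39 to 4.43 in preadipocytes, 4.70 to 4.73 in control siRNA and 4.99 to 5.24 in PPAR gamma siRNA adipocytes, with 4 of the 8 under 5 and 2, Cd68 (1.20) and Cd14 (1.78), higher between the siRNAs, where Cd14 reached 8.46. For 6 endothelial markers it was 3.72 to 4.04 on all arrays, with 5 of the 6 under 5. For 7 markers of muscle, bone and cartilage it was 4.88 to 4.95 in preadipocytes and 5.18 to 5.41 in the adipocyte groups, with 4 of the 7 under 5, while Des, which encodes desmin, read 5.75, 8.16 and 7.53 in the 3 groups. Adipocyte markers were higher in differentiation (9 of 9) and lower with PPAR gamma siRNA than with the control (9 of 9), as Psat1 was and, on its first probe set, Mthfd1. Against preadipocytes 9 of 9 adipocyte markers were higher with PPAR gamma siRNA, where neither enzyme passed on that probe set. Fibroblast markers were higher between the siRNAs (7 of 9), as Aldh1l2 was, but 6 of 9 were lower and none higher against preadipocytes, where Aldh1l2 was higher. The part of such a shift of cell state in the changes of the enzymes was not tested.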

How the data were processed

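The deposited table held log2 values of 45037 probe sets and 64 control probe sets on 9 arrays, already summarised and normalised by the authors. That the scale is log2 was read from the range of 2.41 to 14.59. The submitters' processing notes name MAS5, RMA and affy 1.16.0 without their roles. Of 35890 annotated probe sets, 34945 named 1 gene symbol and 932 several.

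A linear model with a mean per group was fitted to all 9 arrays in limma 3.58.1 (R 4.3.3), over all 45037 probe sets. Tests were two-sided, adjusted by Benjamini and Hochberg over all of them, with a threshold of 0.05, and the fit was tested on simulated data. Pairs of genes were compared by exact permutation tests.

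The members and the gene lists were chosen with earlier results of these data known. Named genes were the 9 members, Pparg, Atf4, Myc, the 3 nearest genes to each member and up to 3 called genes a direction in each list of the pathway, of which some are printed. Alternatives were quantile normalisation, median centring, a filter on dim probe sets (mean under 5), fits restricted to 2 groups, a variance trend, a replicate block, the omission of each array, of 2 arrays by Actb difference and of x and s probe sets, the mean of a gene's probe sets and, added after seeing the data, its second probe set.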

Additional observations from a re-analysis of the deposited data

How the results depend on the processing

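Of 510 alternative values of the members' changes, 480 kept direction and side of the threshold. Of 114 counts of members 107 stayed within 1.5 times the main count, and of 216 pair differences 210 kept their sign, though no pair could reach the threshold and several sizes moved with the second probe set, as given with the pairs. The choice of probe set moved the counts: with the second probe set 1 member was higher and 3 lower in differentiation and 5 were lower in PPAR gamma siRNA adipocytes against preadipocytes, and averaging a gene's probe sets made 2 and 5 lower in these comparisons. Shmt1 turned to -0.26, -0.24 and -0.49 in differentiation, between the siRNAs and against preadipocytes with the mean of its probe sets, and to -0.56, -0.44 and -0.99 with the second. The second probe set also turned Shmt2 between the siRNAs to 0.0068, as did leaving out x and s types, which left no probe set for Phgdh, and turned Shmt2 minus Shmt1 to 0.44 between the siRNAs and 0.29 against preadipocytes, and Aldh1l2 minus Aldh1l1 to 0.81 against preadipocytes. Quantile normalisation turned Mthfd1l to 0.0308 in differentiation and 0.0579 against preadipocytes. Without the 2 arrays of highest Actb difference no member was higher between the siRNAs and Shmt2 read 0.0272, and the count of 0 against 1 rests on Aldh1l2 (0.88, adjusted p = 0.058). The cause of these moves was not tested.

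With each array left out in turn, 0 to 1 members were higher between the siRNAs and 3 to 4 in differentiation. Values near 0 that changed sign ranged from -0.13 to 0.0102 for Phgdh in differentiation, from -0.16 to 0.0398 for Shmt2 and -0.0243 to 0.20 for Mthfd1l between the siRNAs, and from -0.19 to 0.0083 for Psat1, -0.12 to 0.0751 for Mthfd1 and -0.13 to 0.0994 for Mthfd1l against preadipocytes. Mthfd2 minus Mthfd1 ranged from -0.0844 to 0.0004 between the siRNAs, and Mthfd1l minus Mthfd1 from -0.0147 to 0.10 against preadipocytes.

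Replicate numbers showed no sign of pairing the samples. Deviations of the 9 same-number pairs correlated at -0.19 to 0.17, 1 of them over 0.1. Of 18 best matches, each among 3 arrays, 6 were to the own number. With 3 arrays a group, such a check cannot exclude pairing. With the replicate block 9199, 6314 and 6356 genes were called in place of 9427, 6534 and 6632, and the change of Phgdh between the siRNAs kept its value (-1.86, adjusted p = 6.53e-06), as all members kept their calls. Scaling alternatives moved the median of all genes by less than 0.1. The number of arrays, 3 a group, limits the precision.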

Other observations

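The pathways that use serine and one-carbon units moved in both directions. Of 13 measured genes of the methionine cycle and transsulfuration, 4 were higher and 3 lower in differentiation (median change 0.17), and 2 were higher and 1 lower between the siRNAs (median -0.04). Cth, the enzyme that forms cysteine from cystathionine, rose by 0.55 ± 0.13 and fell by 0.83 ± 0.13 (adjusted p = 0.000438), and Ahcy, which clears S-adenosylhomocysteine, went by -0.48 ± 0.08 and 0.67 ± 0.08 (adjusted p = 5e-05). Against preadipocytes 4 were higher and 2 lower with PPAR gamma siRNA (median 0.0028).

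Of 15 measured genes of serine and glycine transport and use, 4 were higher and 4 lower in each of these comparisons (medians -0.07 and 0.08). Alas1, which joins glycine to succinyl-CoA in haem synthesis, rose by 2.81 ± 0.08 and fell by 1.53 ± 0.08, and the neutral amino acid carrier Slc1a5 rose by 1.97 ± 0.12 and fell by 1.03 ± 0.12. Its relative Slc1a4 was higher with PPAR gamma siRNA by 0.80 ± 0.12. Against preadipocytes 6 were higher and 2 lower (median 0.03).

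Of 15 measured genes of purine and thymidylate synthesis, 6 were higher and 6 lower in differentiation (median -0.14), and 3 were higher and 6 lower between the siRNAs (median -0.10). The isoenzymes of phosphoribosyl pyrophosphate synthetase changed in opposite directions: Prps1 changed by 2.72 ± 0.09 and -2.01 ± 0.09, and Prps2 by -2.58 ± 0.13 and 2.03 ± 0.13, on all 3 Prps2 probe sets in the same directions. Impdh1 rose by 2.00 ± 0.13 and fell by 1.76 ± 0.13. Against preadipocytes 2 were higher and 7 lower (median -0.20). The comparisons share the control siRNA arrays.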
